A study of Fagopyrum tataricum with 12 samples.

Results

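The expression of every gene was compared between 9 libraries from Tartary buckwheat seedlings under osmotic stress and 3 libraries from control seedlings. A gene was called separated when all 9 stress libraries lay above, or all 9 lay below, all 3 controls in CPM (read counts scaled to a common library size, here with TMM factors). Of 26750 deposited genes, 22063 had enough reads to be tested, and 9210 of these were separated, 4274 with the stress libraries higher and 4936 with them lower. With library totals in place of TMM the balance turned, to 4633 higher and 4398 lower. The deposited FPKM gave the same counts, but they too are scaled by library totals, so they are not a second check. The plants were Fagopyrum tataricum of the cultivar Dingku1, and the RNA came from leaf and stem of seedlings. Stressed seedlings stood in 20% PEG-6000 for 2, 4 or 8 h (3 libraries at each time), and control seedlings in Hoagland's nutrient solution were taken at 0 h (3 libraries). No untreated seedlings of 2, 4 or 8 h were among the libraries, and time of day and hours under PEG cannot be told apart. Whether replicate libraries stem from different plants is not stated in the labels, and p-values then measure the spread between these libraries, which may be technical.

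PEG-6000 is a polymer too large to enter plant cells, and it lowers the water potential of the medium so that roots take up less water. Plants that lose water make abscisic acid (ABA). The hormone binds PYR/PYL receptors, which then hold back clade A protein phosphatases 2C and so release SnRK2 kinases, and these activate bZIP factors of the ABF class on ABA-responsive promoters. DREB factors act on other stress promoters, and their targets include dehydrins and other late embryogenesis abundant (LEA) proteins, which protect proteins and membranes in drying cells.

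The libraries held 30468104 to 37395814 counted reads, with 23909 to 24208 genes having at least 1 read. Spearman correlations of log2 CPM were 0.9966 to 0.9970 within groups, 0.942 to 0.977 between PEG times and 0.895 to 0.942 between PEG and control libraries. Replicates of a group differed beyond counting noise (chi-square over its degrees of freedom 2.82 to 5.29), so none was treated as a second reading of the same library. These values cannot tell separate plants from separate libraries of the same RNA. As a check of the tissue, the Rubisco small subunit gene RBCS6, a leaf gene, had 13386, 13484 and 14378 CPM in controls. The 26 root markers (Casparian strip, root hair and nitrate uptake genes) summed to 57.7 to 59.6 CPM in controls and to 19.3 to 28.6 CPM over the PEG libraries, with 15 of them too low to be tested. SCR, a factor of roots and shoots, by itself had 29.9 to 32.3 CPM in controls. Sums of markers here and below were scaled by library totals without TMM, so levels of single genes stand beside them only approximately. The 30 secondary wall and vascular markers summed to 499 to 524 CPM in controls and to 1102 to 1139 CPM at 8 h. Fewer cells of a type and less RNA per cell cannot be told apart in such bulk samples, and the part of these markers in the results was not tested.

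The separated genes higher under PEG made up 19.4% of the genes tested and those lower made up 22.4%, together 41.7%. These counts describe the rule that chose them and carry no test. In the same contrast, with the 3 PEG times weighted equally, the edgeR quasi-likelihood test called 7958 genes higher (36.1% of the genes tested) and 7966 lower (36.1%) at a Benjamini-Hochberg adjusted p under 0.05. All but 4 of the separated higher and 11 of the separated lower genes were called. Both measures compare the same PEG and control libraries, so this overlap follows largely from the rule and is no separate support. Adjusted p-values of the mean change given below for separated genes are a description for the same reason. The shares of all genes tested that were separated or called are the background for every count of list members below. The median change of the genes separated upward was 0.80 on the log2 scale and that of the genes separated downward was -0.95, beside 0.01 over all genes tested. A mean change of at least 2-fold was reached by 1746 of the genes higher and 2338 of those lower. Changes over 16-fold were found in 178 genes higher and 121 lower.

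In the control libraries the genes that were higher under PEG held 18.0% to 18.5% of the scaled counts, and in the 8 h libraries they held 42.8% to 43.0%. The genes that were lower under PEG held 43.6% to 44.8% in controls, 27.1% to 27.7% at 2 h and 20.8% to 20.9% at 4 h, and 17.3% were left by 8 h. The gap between control and PEG shares follows from the rule that chose the genes. Libraries of different PEG times did not overlap in either share, and each PEG time lay farther from the control than the time before it. That order is a description with no test.

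**Figure D1:**
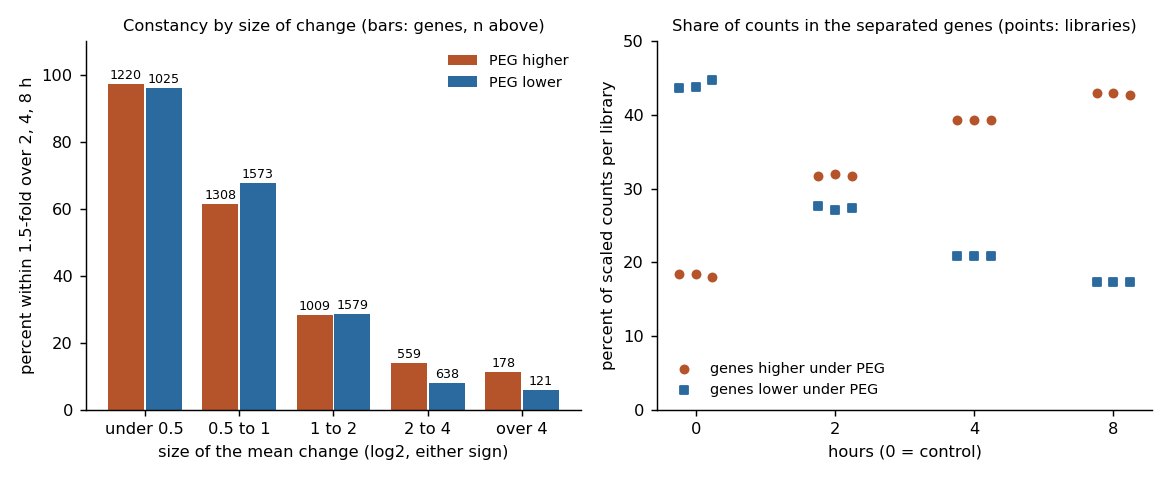
Left, the percent of separated genes whose fitted levels at 2, 4 and 8 h lay within 1.5-fold of each other, by size of the mean log2 change, with the number of genes above each bar. Right, the percent of scaled counts held by the separated genes in each of the 12 libraries (y axis) by hours (x axis): circles lie at 18.0% to 18.5% in controls and 42.8% to 43.0% at 8 h, and squares at 43.6% to 44.8% in controls and 17.3% at 8 h. The gap between control and PEG libraries follows from the rule that chose the genes.

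How constant a gene was over 2, 4 and 8 h was measured by its span, the difference between its highest and its lowest fitted PEG level on the log2 scale. The edgeR test for any difference between the 3 PEG times was past the threshold in 17308 genes, 78.4% of those tested. It was past it in 3678 of the genes separated upward (86.1%) and in 3839 of those separated downward (77.8%). A span under 1.5-fold was found in 11337 genes, 51.4% of those tested, and in 2373 of the genes higher (55.5%) and 2559 of those lower (51.8%), shares close to the background. The 95% intervals of all 3 differences between times lay within 1.5-fold for 1867 genes higher (43.7%) and 1724 lower (34.9%). Over all genes tested that share was 34.8%. The median span was 1.42-fold for genes higher, 1.47-fold for genes lower and 1.48-fold for all genes tested. A span over 4-fold was found in 354 genes higher (8.28%) and 435 lower (8.81%), beside 9.12% of all genes tested.

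The share of constant genes was lower in groups of larger change. Since all 3 times of a separated gene lie on 1 side of the control, a small mean change itself limits the span, so the high shares at small changes are largely set by the rule. Among genes higher under PEG, 1186 of 1220 with a mean change under 0.5 on the log2 scale stayed within 1.5-fold, against 20 of 178 with a mean change over 4. The corresponding numbers for genes lower were 985 of 1025 and 7 of 121. Among separated genes with a mean change of at least 2-fold, 384 of 1746 higher (22.0%) and 509 of 2338 lower (21.8%) were constant. Over all genes tested with such a change the share was 18.4%. Among those called but not separated it was 3.99% of genes higher and 3.80% of genes lower, as the rule itself favours small spans. Relative to the change itself, the smallest of a gene's 3 log2 changes was a median 49.9% of its largest for genes higher and 51.4% for genes lower. From the smallest to the largest changes this median went from 45.9% to 61.5% for genes higher and from 47.9% to 56.5% for genes lower, a description with no test. When the genes were split into 3 equal groups by mean CPM, 31.8% of the separated genes in the lowest group were constant, 60.4% in the middle group and 59.4% in the highest.

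**Figure D2:**
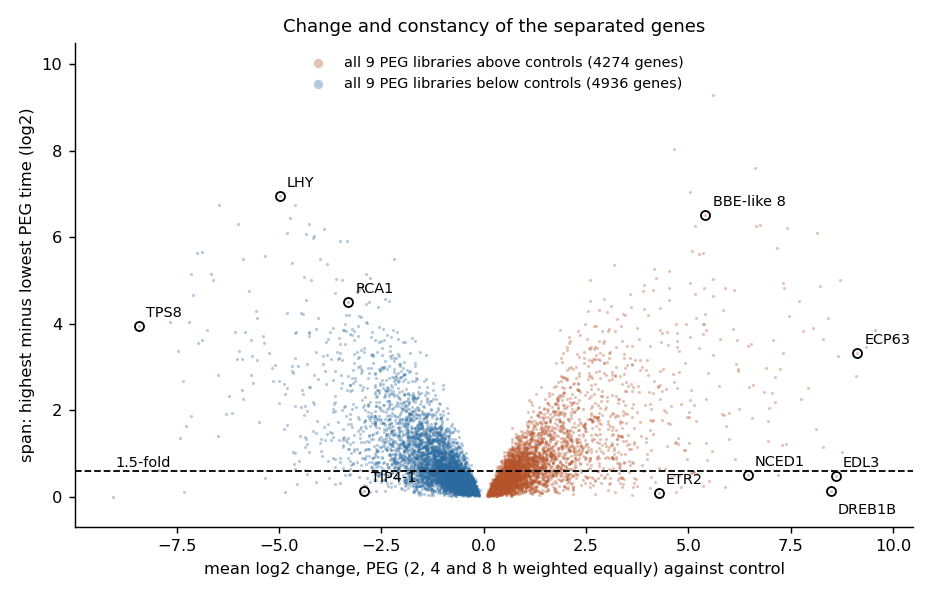
Each point is 1 separated gene: its mean log2 change under PEG against control (x axis) and its span over 2, 4 and 8 h in log2 (y axis), orange for the 4274 genes higher and blue for the 4936 lower. Points fan out with the size of the change, and genes such as DREB1B (change 8.48, span 0.14) and ETR2 (4.28, 0.09) lie under the dashed 1.5-fold line far from 0.

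Few separated genes were farthest from the control at 2 h. Genes higher under PEG had their largest change at 2 h in 585 cases, at 4 h in 2065 and at 8 h in 1624, and genes lower had it at 2 h in 627, at 4 h in 2031 and at 8 h in 2278. All 9 libraries were in order of time, moving away from the control, in 709 genes higher and 967 lower. In the reverse order, coming back toward the control, they stood in 186 genes higher and 58 lower. A level at 4 h beyond every library of 2 and 8 h was seen in 1477 genes higher (34.6%) and 920 lower (18.6%).

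The largest rises, among described genes with at least 10 CPM on average, came from almost no reads in controls. ECP63 (evm.TU.Ft3.119), a LEA protein, had 0.411, 0.57 and 0.302 CPM in controls and a lowest, median and highest PEG level of 77.7, 226 and 807 CPM. Its mean log2 change was 9.12 ± 0.19 (SE, n = 3 libraries a group, edgeR adjusted p = 3.69e-46), and its level stood higher at each time, to 182-fold the control at 2 h, 523-fold at 4 h and 1816-fold at 8 h. STO-A (evm.TU.Ft2.5825), annotated as a hydroxysteroid dehydrogenase of the kind found on seed oil bodies, had 0.302, 0.163 and 0.357 CPM in controls and 20.7, 101.4 and 714 CPM as its lowest, median and highest PEG level. The seed maturation protein gene GMPM1 went from at most 0.274 CPM in controls to 14.0 to 17.2 CPM at 2 h, 51.2 to 58.2 at 4 h and 223 to 239 at 8 h. These 3 genes rose through all 3 times, with no overlap between any of the 4 groups.

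Other large rises differed in how much the level moved after 2 h. DREB1B (evm.TU.Ft5.446), which encodes a factor that binds dehydration-responsive promoter elements, had 0.247, 0.353 and 0.44 CPM in controls. Under PEG it had 131, 133 and 126 CPM at 2 h, 116, 121 and 117 at 4 h and 131, 119 and 128 at 8 h. The mean log2 change was 8.48 ± 0.22 (SE, adjusted p = 5.18e-43), and although the times differed in the test (adjusted p = 0.0119), its span was 1.10-fold and the 95% intervals of the 3 differences lay within 1.17-fold. EDL3, which in Arabidopsis is an F-box protein of ABA responses (here evm.TU.Ft7.3497), had 0.768, 1.03 and 0.824 CPM in controls and 282 to 404 CPM over the 9 PEG libraries, a rise of 8.60 ± 0.13 (log2, SE, adjusted p = 2.87e-47) with a span of 1.40-fold. The sugar exporter gene SWEET14 rose from at most 0.217 CPM to 26.3 to 26.9 CPM at 2 h and 57.4 to 60.01 CPM at 8 h, a span of 2.22-fold.

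Among described genes with at least 10 CPM that were higher by at least 2-fold, the 6 smallest spans were mostly those of regulators and receptors. Because these genes were picked for their small spans, their tests and intervals between times are a description only. CPRF1 (evm.TU.Ft5.2129), named for a parsley bZIP factor that binds G-box elements, had 50.4, 54.9 and 51.5 CPM in controls and a lowest, median and highest PEG level of 331, 347 and 363 CPM. Its mean log2 change was 2.73 ± 0.034 (SE, adjusted p = 4.26e-39), a 6.63-fold rise. The 3 PEG times could not be told apart (adjusted p = 0.412), and every difference between them had a 95% interval within 1.09-fold. ETR2 (evm.TU.Ft1.434), an ethylene receptor, had 0.987, 1.55 and 1.40 CPM in controls and 24.04 to 27.0 CPM in the PEG libraries. It rose 18.8-fold at 2 h, 20.0-fold at 4 h and 19.4-fold at 8 h (test between times adjusted p = 0.49, intervals within 1.17-fold). The ABA-responsive bZIP factor ABF2 had 31.8, 31.9 and 31.95 CPM in controls and 80.5 to 92.2 under PEG, with a mean rise of 2.68-fold and intervals within 1.13-fold. The jasmonate repressor TIFY6B, the calcium-binding protein CBP and the transcriptional regulator SLK2 had the other small spans, with rises of 2.27-fold, 2.27-fold and 2.03-fold.

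**Figure D3:**
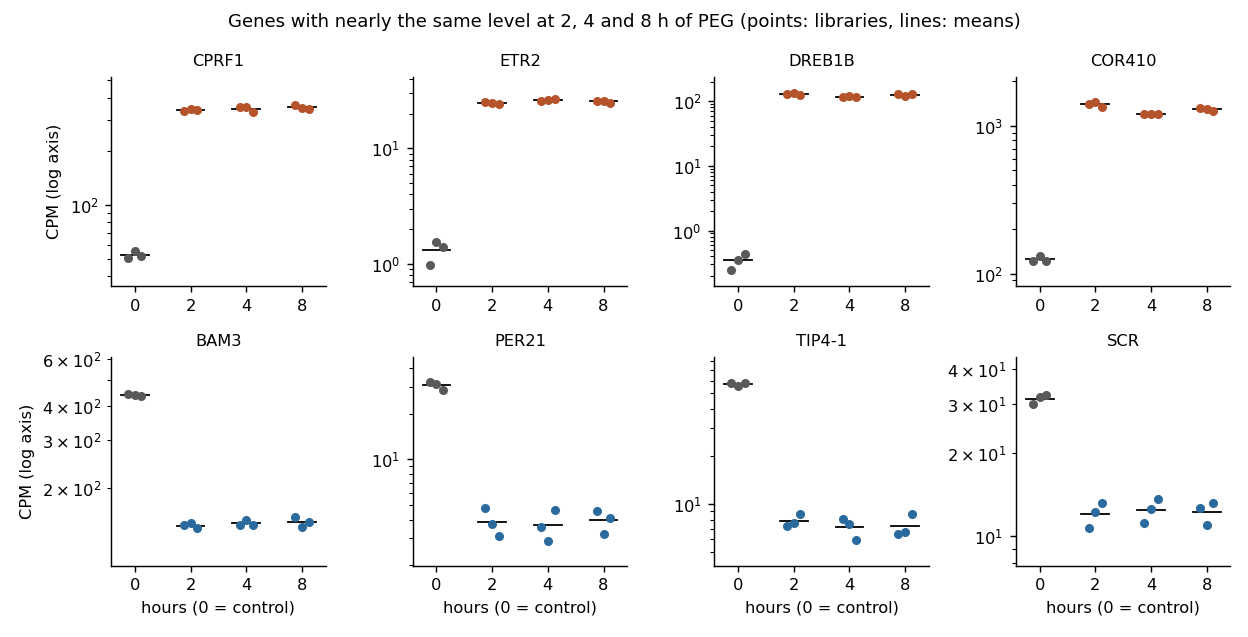
CPM on a log axis (y) in each of the 3 libraries per group (points, with the mean as a line) by hours (x, 0 being the control) for 8 genes whose level was nearly the same at all PEG times. The groups of 2, 4 and 8 h overlap in CPRF1, BAM3, PER21, TIP4-1 and SCR, and the 2 and 4 h groups stand apart in ETR2, DREB1B and COR410. No PEG library reaches a control, as the rule requires.

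Among described genes with at least 10 CPM that were lower by at least 2-fold, the 6 with the smallest spans included enzymes, a water channel and a pair of transcription factors. BAM3 (evm.TU.Ft1.2122), the chloroplast beta-amylase that breaks down leaf starch, had 443, 439 and 438 CPM in controls and 141, 145 and 156 CPM as the lowest, median and highest of the PEG libraries. The log2 change was -1.58 ± 0.030 (SE, adjusted p = 1.58e-35), leaving 32.9%, 33.6% and 33.9% of the control at 2, 4 and 8 h (test between times adjusted p = 0.542, intervals within 1.09-fold). TIP4-1, an aquaporin of the vacuolar membrane, fell from 58.1, 55.2 and 57.7 CPM to 5.96 to 8.69 CPM, 13.1% of the control. The peroxidase gene PER21 fell from 28.7 to 32.4 CPM to 2.90 to 4.73 CPM, and the polyamine oxidase gene PAO5 from 48.0 to 49.97 CPM to 14.2 to 16.7 CPM. SCARECROW (SCR), the GRAS factor named among the root markers, which patterns the ground tissue of roots and shoots, kept 38.6%, 39.6% and 39.3% of its control level, and the factor gene TCP7 kept 40.8%, 36.9% and 37.1%. For TCP7 the test between times was past the threshold (adjusted p = 0.0422), while for the other 5 it was not. All 6 were picked for their small spans, so these tests and intervals are a description only.

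The ABA pathway held both constant and climbing genes. Of 20 tested genes of ABA synthesis and breakdown, 8 had all PEG libraries higher and 4 lower, 4 and 1 of them constant within 1.5-fold. NCED1 (evm.TU.Ft6.1013), the carotenoid-cleaving enzyme that limits ABA synthesis, had 2.03, 2.25 and 1.65 CPM in controls, 199 to 219 CPM at 2 h, 147 to 149.9 CPM at 4 h and 162 to 169 CPM at 8 h. Its mean log2 rise was 6.44 ± 0.097 (SE, adjusted p = 2.11e-43), and the 2 h libraries stood highest with a span of 1.41-fold. A second gene with that symbol (evm.TU.Ft1.2822) went from 1.39 to 2.03 CPM to 44.0 to 55.9 CPM with a span of 1.16-fold. The ABA 8'-hydroxylase gene CYP707A4, which starts ABA breakdown, fell from 1.92 to 2.39 CPM to 1.11 CPM or less, reaching 0 to 0.13 CPM at 8 h. Reads of near-identical gene copies can be split or dropped in counting, so the levels of such pairs are uncertain.

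Of 11 tested PYR/PYL receptor genes 2 were separated upward and 6 downward. The PYL1 gene evm.TU.Ft6.1763 had 11.4, 12.4 and 11.2 CPM in controls and 133 to 181 CPM under PEG, a 12.7-fold rise with a span of 1.25-fold. PYL9, another receptor gene, fell from 36.0 to 40.2 CPM to 22.5 to 28.0 CPM. Of 12 ABA-linked phosphatase genes 6 were separated upward and 3 downward, and 3 of each were constant. ABI1 had 25.7, 28.3 and 27.6 CPM in controls and rose to 567 to 598 CPM at 2 h, 646 to 668 at 4 h and 826 to 839.5 at 8 h, a mean of 25.1-fold with a span of 1.42-fold. PP2C51 rose from 3.29 to 3.98 CPM to 401, 629 and 965 CPM as the lowest, median and highest PEG level, 108-fold the control at 2 h and 252-fold at 8 h. Of 12 SnRK2 kinase genes 8 were separated upward and 1 downward. SAPK3 rose 35.1-fold, from 6.40 to 8.17 CPM to 208 to 310.0 CPM, and SAPK10 climbed from 36.0 to 39.0 CPM to 63.1 to 68.7, 139 to 146 and 244 to 249 CPM at the 3 times.

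Of 23 tested LEA and dehydrin genes, 16 were separated upward and 1 downward, with a median log2 change of 2.24 beside 0.01 over all genes tested. The median change of the 23 was 1.75 at 2 h, 3.23 at 4 h and 2.95 at 8 h. The separated members had a median span of 7.11-fold beside 1.45-fold over all separated genes, and 13 of the 17 were farthest from the control at 8 h. COR410, a dehydrin, was an exception: it had 122, 131 and 122 CPM in controls and 1340.3 to 1454 CPM at 2 h, 1203 to 1209.6 at 4 h and 1264 to 1323 at 8 h. That is a log2 rise of 3.38 ± 0.030 (SE, adjusted p = 6.25e-43) with a span of 1.16-fold. Genes named as seed storage and oil body markers moved the same way, with 9 of 15 separated upward and 1 downward, and the 22 markers together summed to 97.9 to 110.6 CPM in controls and 312 to 328 CPM at 8 h. Oleosin 5, a coat protein of oil bodies, had 0.38 to 0.768 CPM in controls and 20.9 to 24.9 CPM at 8 h.

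Enzymes that make raffinose, proline and trehalose had 16 of 39 tested genes separated upward, 10 of them constant, and 8 separated downward. RFS2, named as a raffinose synthase, had 249, 249 and 250.1 CPM in controls and 540.2 to 701 CPM under PEG, 2.45-fold up with a span of 1.26-fold. TPS6, named as a trehalose-phosphate synthase, rose from 77.7 to 83.2 CPM to 134 to 150.8 CPM, and its PEG times could not be told apart (adjusted p = 0.292, intervals within 1.11-fold). TPPA, named as a trehalose-phosphate phosphatase, peaked at 4 h with 16.8 to 18.9 CPM, against 2.05 to 3.126 at 2 h, 1.33 to 1.77 at 8 h and 0.795 to 1.09 in controls.

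Counts of separated transcription factors are set here beside the 19.4% upward and 22.4% downward of all genes tested, with no test of a difference. AP2, ERF and DREB factors had 40 of 111 tested genes separated upward and 16 downward, NAC factors 21 and 9 of 62, heat stress factors 16 and 4 of 32, WRKY factors 16 and 10 of 72, HD-ZIP factors 10 and 11 of 46, and MYB factors 24 and 26 of 138. The share of separated members that stayed within 1.5-fold ran from 28.6% for the AP2 group to 40% for the NAC and heat stress factors, beside 53.6% of all separated genes. The NAC gene JA2L, named for a tomato factor of jasmonate and ABA signalling, had 102, 118 and 107 CPM in controls and 499.9 to 833 CPM under PEG. HSFA2C (evm.TU.Ft6.1491) rose from 40.5 to 41.7 CPM to 520.4 to 544 CPM at 2 h, and had 318 to 332 at 4 h and 371 to 401 at 8 h. A second HSFA2C gene (evm.TU.Ft2.153) fell, from 36.9 to 41.4 CPM to 31.4 to 35.4, 11.8 to 13.8 and 3.98 to 4.98 CPM at the 3 times. WRKY28 had 35.3 to 37.8 CPM in controls and 115 to 132 CPM under PEG, with a span of 1.07-fold (adjusted p = 0.0712 between times). HOX22 (evm.TU.Ft7.3765), an HD-ZIP factor, climbed from 66.1 to 74.9 CPM to 579 to 607, 714 to 728 and 992 to 1063 CPM.

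**Figure D4:**
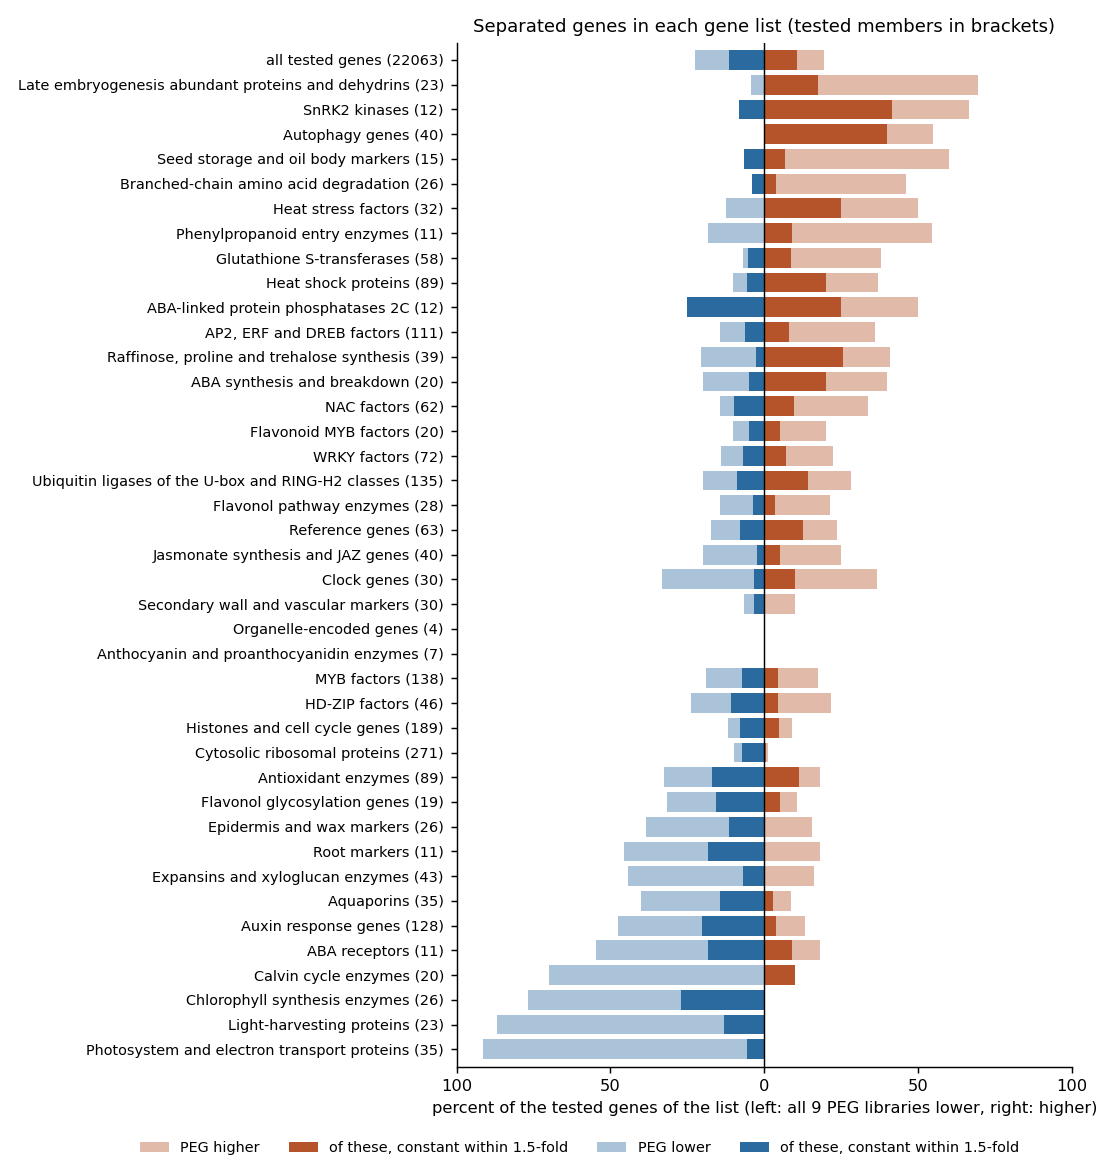
Percent of the tested genes of each gene list (y axis, tested members in brackets) with all 9 PEG libraries below (left, blue) or above (right, orange) all 3 controls. The dark part of each bar is the share that also stayed within 1.5-fold over 2, 4 and 8 h, and the top row gives all 22063 genes tested.

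Autophagy genes rose, and 72.7% of the separated ones were constant beside 53.6% of all separated genes, a difference that was not tested. Of 40 tested autophagy genes 22 were separated upward, 16 of them constant, and 0 were separated downward. By other measures the 22 were no more constant than the rest. Their median span was 1.42-fold beside 1.45-fold for all separated genes. The smallest log2 change was a median 42.7% of the largest, beside 50.5%. In the test between times 20 of the 22 differed, and 19 were farthest from the control at 4 h. In the edgeR test of the mean change 32 of the 40 were called higher and 0 lower, beside 36.1% each way of all genes tested. ATG8F, a ubiquitin-like protein that is built into autophagosome membranes, had 156, 166 and 160.1 CPM in controls, 308.2 to 325 at 2 h, 438 to 457 at 4 h and 291 to 305 at 8 h, a log2 rise of 1.11 ± 0.030 (SE, adjusted p = 1.27e-28). ATG8I rose 3.05-fold. Heat shock proteins had 33 of 89 genes separated upward, 18 of them constant, and 9 downward. The cognate HSP70 gene rose from 233 to 268 CPM to 692 to 942 CPM with a span of 1.27-fold. U-box and RING-H2 ubiquitin ligases had 38 of 135 separated upward and 27 downward, 48.1% in all and close to the 41.7% of all genes tested, and PUB9 rose from 74.0 to 79.6 CPM to 134 to 196 CPM. Branched-chain amino acid degradation genes had 12 of 26 separated upward and 1 downward, but only 1 of the 12 was constant and 10 of the 13 were farthest from the control at 4 h. BCAT2, the transaminase of that pathway, had 35.2 to 43.2 CPM in controls and 139 to 144, 317 to 328 and 184 to 195 CPM at the 3 times.

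Detoxification genes rose more often than they fell, and antioxidant enzymes did the reverse. Glutathione S-transferases had 22 of 58 genes separated upward and 4 downward, with a median log2 change of 0.73. GSTU8 peaked at 4 h with 23.0 to 27.3 CPM, against 0.0272 to 0.219 CPM in controls. Antioxidant enzymes had 16 of 89 separated upward and 29 downward, 10 and 15 of them constant. The separated member with the most reads, a thioredoxin H-type 1 gene (evm.TU.Ft4.5823), had 452, 478.03 and 448 CPM in controls and 746 to 808 CPM under PEG, with intervals between times within 1.09-fold.

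Photosynthesis genes fell together and kept falling. Of 23 tested light-harvesting genes, 20 were separated downward and 0 upward, and all 20 were farthest from the control at 8 h. In the edgeR test all 23 were called lower, beside 36.1% of all genes tested. CAB36, a chlorophyll a-b binding protein, had 8513, 8529 and 9117 CPM in controls, 4077 to 4443 at 2 h, 2999 to 3036 at 4 h and 428 to 471 at 8 h. The log2 change was -2.28 ± 0.028 (SE, adjusted p = 5.34e-42), and 48.9%, 34.6% and 5.17% of the control level remained at the 3 times. Photosystem and electron transport genes had 32 of 35 separated downward, 2 of them constant. PSBO, of the oxygen-evolving complex, fell less, from 3599.5 to 3896 CPM to 1359.9 to 1427 CPM at 8 h. PSBS, which dissipates excess light, fell from 619.5 to 669.7 CPM to 25.7 to 29.4 CPM at 8 h. Chlorophyll synthesis enzymes had 20 of 26 separated downward, among them CHLH, the magnesium chelatase subunit, from 1545 to 1761 CPM to 45.8 to 50.6 CPM at 8 h. Only 7 of the 20 were constant. One of them, HEMC, kept 65.0%, 54.8% and 64.9% of its control level.

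Calvin cycle enzymes had 14 of 20 genes separated downward and 2 upward, and the median span of the separated members was 4.38-fold. RCA1, the Rubisco activase, had 13807, 14133 and 14986 CPM in controls and fell to 5430.3 to 5767 CPM at 2 h, 2109 to 2216 at 4 h and 238 to 252 at 8 h. Its mean log2 change was -3.31 ± 0.026 (SE, adjusted p = 5.85e-48) and 1.73% of the control was left at 8 h. FBA2, the chloroplast aldolase, fell from 863 to 946 CPM to 8.97 to 10.2 CPM at 8 h. Both members separated upward were constant, and the one annotated as a chloroplast phosphoglycerate kinase (evm.TU.Ft5.1827) had 20.7 to 24.2 CPM in controls and 51.6 to 74.4 CPM under PEG. The 24 light-harvesting genes summed to 38790.5 to 41489.6 CPM in controls and to 4905 to 5184 CPM at 8 h.

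Growth genes were lower in the larger number. Auxin response genes had 61 of 128 separated downward, 26 of them constant, and 17 upward. IAA14, an auxin response repressor, fell from 553 to 587 CPM to 335 to 541 CPM. Expansins and xyloglucan enzymes, which loosen walls, had 19 of 43 separated downward and 7 upward, and 3 of the 26 were constant. EXPA1 had 57.1, 58.1 and 59.6 CPM in controls and 4.59 to 14.6 CPM under PEG, lowest at 4 h. XTHB went the other way and mostly at 8 h, with 93.2 to 97.8 CPM in controls, 115 to 138 CPM at 2 and 4 h and 533 to 566 CPM at 8 h. Aquaporins had 14 of 35 separated downward and 3 upward, and the separated one with the most reads, PIP2-2 of the plasma membrane, fell from 1436 to 1522 CPM to 1321 to 1348, 869.9 to 921 and 506 to 557 CPM. For ribosomal proteins, 216 of 271 cytosolic ribosomal protein genes were called lower by edgeR in the mean, beside 36.1% of all genes tested. The fall lay mostly at 4 h: the median log2 change of the 271 was 0.03 at 2 h, -0.54 at 4 h and -0.09 at 8 h. But 27 were separated downward and 3 upward, 11.1% in all beside 41.7% of all genes tested. The 27 became 13 when library totals were used without TMM. RPS4, the separated one with the most reads, had 539 to 564 CPM in controls, 458 to 462 at 2 h, 366 to 372 at 4 h and 482 to 503 at 8 h. Of the 26 tested genes listed as epidermis and wax markers 4 were separated upward and 10 downward, and the 33 markers together summed from 1129.5 to 1186 CPM in controls to 3347 to 3726 CPM at 8 h. CER1, of wax alkane synthesis and a member of that list, had 32.9 to 40.4 CPM in controls and 1144 to 1304 CPM at 8 h, with TMM scaling that the sum does not carry.

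The flavonoid pathway, which in this species leads to rutin, held genes that moved both ways. Over all genes tested, 19.4% were separated upward and 22.4% downward. Of 11 tested phenylpropanoid entry genes 6 were separated upward and 2 downward, with 1 constant. That one was PAL3, the ammonia-lyase at the start of the pathway, which had 56.2, 54.9 and 51.2 CPM in controls and 113.4 to 143 CPM under PEG, 2.42-fold up. The cinnamate hydroxylase genes moved both ways, CYP73A4 from 159 to 174 CPM to 205 to 339 CPM, highest at 2 h, and CYP73A14 from 56.7 to 63.2 CPM to 8.78 to 23.96 CPM. Flavonol pathway enzymes had 6 of 28 separated upward and 4 downward, 35.7% in all beside 41.7% of all genes tested. Chalcone synthase (CHS, evm.TU.Ft3.2401) had 340.3, 323 and 305 CPM in controls and 385 to 405, 421 to 428 and 667 to 729.9 CPM at the 3 times, a log2 rise of 0.60 ± 0.031 (SE, adjusted p = 1.69e-19). None of 7 anthocyanin and proanthocyanidin genes was separated, although edgeR called 5 higher, beside 36.1% of all genes tested. DFR, the dihydroflavonol reductase with the most reads of the list, had 163 to 167 CPM in controls and 134 to 197 CPM under PEG (mean log2 change -0.01 ± 0.033, edgeR adjusted p = 0.77). Of 19 flavonol glycosylation genes 2 were separated upward and 6 downward, 42.1% in all and close to the share of all genes tested. Of 20 flavonoid MYB factors 4 were separated upward and 2 downward, 30% in all and below that share. MYB12, named for a flavonol activator of Arabidopsis, fell from 2.39 to 2.662 CPM to 0.116 to 0.501 CPM.

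The most variable described genes with at least 10 CPM moved in different ways over the 3 times. A berberine bridge enzyme-like 8 gene (evm.TU.Ft3.2126) had 0.494, 0.652 and 0.522 CPM in controls, 14.8 to 16.4 at 2 h, 273 to 289 at 4 h and 2.20 to 3.83 at 8 h, a span of 91.6-fold. CYP76AJ1, a cytochrome P450, followed the same course from 1.68 to 2.15 CPM to 53.4 to 57.8, 245 to 258 and 4.89 to 7.90 CPM. RTNLB13, a reticulon-like membrane protein, had 0, 0.136 and 0 CPM in controls and 1.47 to 1.91, 13.2 to 15.2 and 104 to 126 CPM. Every PEG library of these genes lies outside the controls by the rule that chose them.

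Clock genes were among the most variable. Of 30 tested, 11 were separated upward and 10 downward, 3 and 1 of them constant, and the median span of the separated ones was 4.20-fold. The gene evm.TU.Ft5.2081 is named LHY, a repressor that acts in the morning part of the clock, and had 1260.4, 1270.3 and 1286 CPM in controls, 354 to 362 at 2 h, 58.4 to 67.2 at 4 h and 2.65 to 3.18 at 8 h. Its mean log2 change was -4.98 ± 0.039 (SE, adjusted p = 3.55e-49) and its span 125-fold. The second LHY gene (evm.TU.Ft7.3783) fell from 360.1 to 374 CPM to 2.27 to 2.47 CPM at 8 h. COL2, a CONSTANS-like factor, fell from 56.7 to 58.2 CPM to 0.0601 to 0.313 CPM at 8 h, and GIGANTEA (GI), which peaks late in the day in Arabidopsis, rose from 351 to 356 CPM to 503 to 564, 1274 to 1281 and 1143 to 1171 CPM. For these genes, as for the rest, time of day moved with the hours in PEG.

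**Figure D5:**
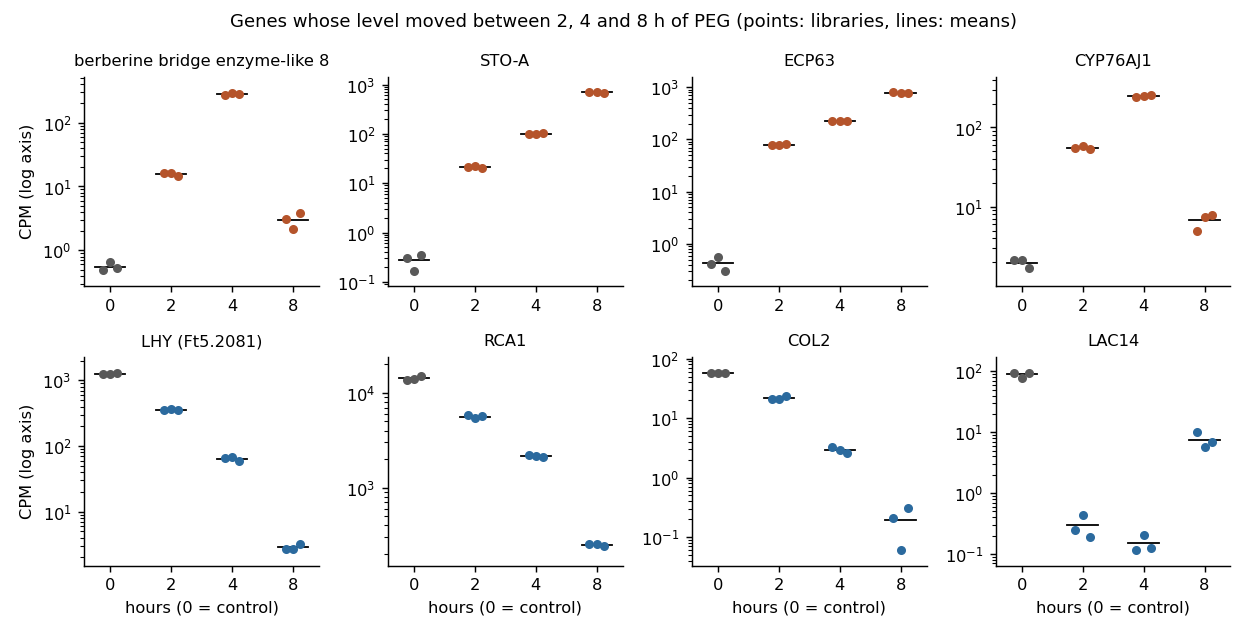
CPM on a log axis (y) in each of the 3 libraries per group (points, with the mean as a line) by hours (x, 0 being the control) for 8 separated genes that differed between PEG times. BBE-like 8 and CYP76AJ1 peak at 4 h, STO-A and ECP63 climb, LHY, RCA1 and COL2 fall at each time, and LAC14 is lowest at 4 h and partly back at 8 h.

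Besides LHY, the 8 largest falls among described genes with at least 10 CPM were those of enzymes and of the chloroplast protein PPD7. TPS8, annotated as a terpene synthase, had 76.2, 79.3 and 88.0 CPM in controls and at most 0.194 CPM at 2 and 4 h, with 0.932 to 1.90 CPM at 8 h (mean log2 change -8.43 ± 0.27, SE, adjusted p = 1.29e-40). LAC14, a laccase, had 79.3 to 95.01 CPM in controls, 0.116 to 0.44 CPM at 2 and 4 h and 5.71 to 9.91 CPM at 8 h. ADK, annotated as an adenosine kinase, fell from 36.9 to 40.9 CPM to 0.451 to 2.73 CPM. A gene annotated as a kaempferol galactosyltransferase (evm.TU.Ft6.969) fell from 113.6 to 124 CPM to 3.44 to 7.66 CPM, and CYP76T24 from 61.7 to 73.8 CPM to 1.38 to 3.85 CPM. In these 5 the lowest control lay at least 8.00-fold above the highest PEG library. PPD7 fell from 55.2 to 59.6 CPM to 16.01 to 18.1, 2.52 to 3.58 and 0.0522 to 0.286 CPM at the 3 times. CRSP, a secreted protease, fell from 32.9 to 37.01 CPM to 0.18 to 4.65 CPM, and its lowest control lay 7.08-fold above its highest PEG library.

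At the edge of the rule the groups almost touched. Just inside it, the organellar peptidase gene OOP had 68.04, 69.4 and 76.1 CPM in controls and 76.1 CPM in its lowest PEG library, and the vacuolar transporter gene ABCC2 had 728 CPM in its lowest control and 728 CPM in its highest PEG library. Just outside it, rtf2 had a highest control and a lowest PEG library both at 49.6 CPM, and ICDH-1, an isocitrate dehydrogenase, a lowest control and a highest PEG library both at 34.5 CPM. The genes that edgeR called without separation numbered 3688 higher and 3041 lower, and 888 and 753 of them missed by 1 library. In 1511 of those higher and 1305 of those lower, at least 1 PEG time was fitted on the other side of the control.

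Of 63 tested genes often used as references, 15 were separated upward and 11 downward, 41.3% beside 41.7% of all genes tested, and 6 stayed within 1.2-fold over all 4 groups. ACT7, an actin, had 2617, 2646 and 2608 CPM in controls and 1906 to 1998, 1575 to 1605 and 1226 to 1277 CPM at the 3 times. GAPC2, a cytosolic glyceraldehyde-3-phosphate dehydrogenase, rose from 14.1 to 17.4 CPM to 458 to 481 CPM at 4 h and had 31.2 to 34.6 CPM at 8 h. PP2AA2, a regulatory subunit of phosphatase 2A, rose 1.27-fold with a span of 1.05-fold.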

How the data were processed

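The authors deposited whole-number counts of reads for 26750 genes and, in a second table, FPKM values. Per the submitters' processing notes the work used DESeq2, HTSeq, HISAT2 and fastp, in no stated version. For build and strand of counting the entry is: not given in the sources used here, so overlapping antisense genes cannot be told apart. Sequences and positions were not used here.

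Counts were filtered with filterByExpr by group (minimum count 10, minimum total 15), which removed 4687 genes, scaled by TMM (factors 0.936 to 1.10) and fitted over all 12 libraries with edgeR 4.0.16 in R 4.3.3. The common coefficient of variation between replicates in the fit, beyond counting noise, came to 4.90%. The contrast was the mean of the 3 PEG times minus control, and an F test compared the 3 PEG times. Adjusted p-values are Benjamini-Hochberg over all 22063 genes. Separation used scaled CPM of single libraries, 95% intervals came from the fit, and intervals cover counting and replicate error of these libraries only. Limma 3.58.1 and DESeq2 1.42.0 served as alternatives, and the code was tested on simulated data.

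The 40 gene lists were text searches of deposited symbols and descriptions. Members and lists were chosen with earlier results of these data known, and the epidermis list was added after the others, with values in view. The rule for named genes took, among separated and called genes with at least 10 CPM and a described product, the 8 largest rises and falls, the 6 smallest spans each way among changes of at least 2-fold and the 5 largest spans each way, per list the separated members with the highest level, largest change and smallest and largest span, and the genes at the edge of the rule. It gave 165 genes, a selection of which is described. For genes picked by their span, tests and intervals between times are a description only, and so are adjusted p-values of the mean change for separated genes. Tables and figures used matplotlib 3.10.9, numpy 2.4.6 and pandas 2.3.3 under Python 3.11.15.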

Additional observations from a re-analysis of the deposited data

Results flagged for a closer look

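The level differed between 2, 4 and 8 h in the edgeR F test (adjusted p under 0.05) in 3678 of the genes separated upward and in 3839 of those separated downward. Among the genes separated upward with at least 10 CPM on average and a described product, the 5 largest spans over the 3 times, on the log2 scale, were 6.52 for a berberine bridge enzyme-like 8 gene, 6.096 for RTNLB13, 5.36 for a carbohydrate esterase gene (evm.TU.Ft2.4147), 5.22 for CYP76AJ1 and 5.01 for STO-A. Under the same limits, those among the genes separated downward were 6.96 and 6.19 for the LHY genes, 6.75 for COL2, 6.43 for PPD7, a PsbP domain protein, and 6.30 for CYP736A117, a cytochrome P450. All 10 passed the test of a difference between times, and each had been picked for its span, so these values are a description.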

How the results depend on the processing

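Counts of genes called, separated, constant and differing between times stayed within 1.5 times the values given under DESeq2 size factors, library totals, no filter, a stricter filter, DESeq2 itself, limma on log2(FPKM + 1) or + 0.1 and separation in FPKM, wherever each could be computed. Leaving out 1 library in turn gave 7489 to 7905 genes called higher, 7524 to 8022 called lower, 4354 to 4716 separated upward, 4993 to 5313 separated downward, 2414 to 2622 and 2557 to 2776 of them constant, and 3640 to 3976 and 3734 to 4036 differing between times. Library totals turned the balance of separated genes to 4633 higher and 4398 lower, and FPKM, which are scaled by library totals too, repeated these counts. A required margin of 1.2-fold left 2250 separated genes higher and 3120 lower, and a 2-fold minimum left 2372 called higher and 2654 lower. Constancy depended on its band: 1004 and 1024 genes were within 1.2-fold, and 384 and 509 were within 1.5-fold with at least a 2-fold change. With 2 PEG times only, more genes were separated and constant, 3989 higher and 4047 lower without 2 h, and 4532 and 4719 without 8 h, since fewer libraries had to lie beyond the controls and fewer times within the band. With the replicate number as a block, 7934 genes were called higher and 7936 lower. Same-numbered libraries did not deviate together (r -0.053 to 0.052, 0 of 18 pairs over 0.1, 2 of 12 libraries closest to their own number). What a shared number means is not stated in the labels, and such correlations cannot tell. Of 3913 values for named genes all but 12 kept direction and side of the threshold. The log2 change of DFR, not called, was 0.0234 with library totals, 0.0981 without 4 h, 0.0226 in limma on log2(FPKM + 1), filtered or not, and 0.0226 on log2(FPKM + 0.1), and ranged from -0.0258 to 0.000930 with 1 library left out. That of psbA, also not called, ranged from -0.00565 to 0.250 with 1 library left out. The causes were not tested. DFR was called without 8 h (-0.11), and 3 genes lost their call in 4 values.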

Other observations

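Pathway names deposited with the genes were looked through after the values were seen. Of 61 tested genes of the proteasome, the complex that breaks down ubiquitin-tagged proteins, 39 were separated upward and 0 downward. That is 63.9% beside 41.7% of all genes tested, and 38 of the 39 stayed within 1.5-fold over 2, 4 and 8 h. Changes of the 39 were small, 1.11-fold to 2.87-fold with a median of 1.31-fold. Among all separated genes with a mean log2 change under 0.5, 97.2% of those higher and 96.1% of those lower were constant. Among 46 genes under photosynthesis 35 were separated downward and 3 upward, with 7.89% of these constant. Of 46 basal transcription factor genes 16 were separated upward and 2 downward, all constant. That is 39.1%, close to the 41.7% of all genes tested, and the log2 changes of the 46 were small (median 0.16, highest 0.81). Of 351 genes under ribosome 69 were separated downward and 4 upward, 20.8% in all. The median log2 change of the 351 was 0.01 at 2 h, -0.56 at 4 h and -0.10 at 8 h. Of 28 genes of GPI-anchor biosynthesis, which makes membrane anchors for proteins, 1 was separated in each direction, the lowest share (7.14%) of the 97 pathways with at least 20 tested genes.

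The 153 organelle-encoded genes were nearly without reads, summing to 3.96 to 7.80 CPM over all libraries, and 4 of them could be tested. The chloroplast gene psbA had 1.33 to 1.426 CPM in controls and 0.775 to 2.87 CPM under PEG.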
